A study of Bos taurus with 8 samples.

Results

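The genes described here are 6 members of the apical polarity machinery of epithelial cells, PRKCI, PARD3, PARD6B, CRB3, EZR and RAB25. They were picked by name from a table of 18825 genes, and all 6 were in it. Their RNA was followed in 286 single cells of wildtype cattle (Bos taurus) embryos aged 6, 7, 8 and 9 days after fertilization. The cells came in 6 libraries, numbered replicates 1 to 6, each a pool of barcoded cells that may come from several embryos. The cell table of the authors sorts the cells into 7 classes. Day 6 is Morula and day 7 is EB, printed as the table gives it. Day 8 holds MB TE and MB ICM, and day 9 holds LB TE, LB EPI and LB PE. In this field TE stands for trophectoderm, the outer layer that forms placenta, and ICM for the inner cell mass. EPI stands for the epiblast, which forms the body, and PE for primitive endoderm, also called hypoblast. The wildtype embryos carry no edit and no treatment per the labels, which name no breed, sex or embryo. In 2 further libraries embryos were injected with BE3 base editor RNA, with or without SOX2 guides, and these were not analysed here.

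As background, an epithelial cell separates a free apical surface from the sides that touch its neighbours. At the apical side atypical protein kinase C, of which PRKCI encodes the iota form, works with the scaffolds PARD3 and PARD6B and with the small GTPase CDC42. The Crumbs protein CRB3 marks the apical membrane, EZR encodes ezrin, which ties that membrane to actin in microvilli, and RAB25 steers recycling vesicles to it. In mammalian embryos the outer cells of the morula become polar and form trophectoderm, while the apolar inner cells form epiblast and hypoblast. The epiblast later becomes a polarised epithelium itself.

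Cells are described as CPM (counts scaled to 1000000 assigned reads per cell), averaged over the cells of 1 class in 1 library where at least 3 such cells were present. This gave 16 averages over 276 cells: 3 each for MB ICM, MB TE and LB EPI, 2 each for Morula, LB PE and LB TE, and 1 for EB. The recovered depth was 2633 to 747345 reads per cell, with a median of 39210 in LB PE and of 87902 to 198116 in the other classes. The summed level of 4 epiblast genes (SOX2, NANOG, POU5F1 and TDGF1) was 2038 to 2326 CPM in LB EPI and 75.9 to 594 in the other day 9 averages. That of 6 trophectoderm genes was 28208 to 55615 CPM in MB TE and LB TE and at most 5754 in every other class. KRT8 and KRT18 made up most of that sum in MB TE and LB TE. Not all of the epiblast and trophectoderm genes separated the classes. SOX2 was at 165 to 223 CPM in LB EPI, against 179 in LB PE of replicate 3 and 180 in EB. CDX2 was at 46.6 CPM in Morula of replicate 6, against 35.3 and 44.9 in LB TE. GATA3 was at 410 in EB, against 389 and 467 in LB TE. GATA2 was at 3.40 in LB TE of replicate 5 and 4.81 in LB PE of replicate 3. Of 5 hypoblast genes, PDGFRA (265 to 333 CPM), GATA6 (260 to 533) and FN1 (4472 to 4714) were higher in LB PE than in every LB EPI and LB TE average. HNF4A was not, at 174 to 184 CPM in LB PE and 144 to 252 in LB EPI, and SOX17 was at 0 in both LB PE averages. No markers were set for Morula, EB and MB ICM, whose names rest on the cell table alone. The LB PE averages were unlike each other: SOX2 was at 179 CPM in replicate 3 and 17.0 in replicate 5, and the 6 trophectoderm genes summed to 5754 and 2081 CPM. Genes of other cell types also differed between them: the fibroblast genes summed to 259 CPM in LB PE of replicate 3 and 880 in replicate 5, and the blood genes to 70.8 and 6.86. Over all averages the fibroblast sum was 39.4 to 880 CPM, and the cumulus and granulosa sum was at most 19.3 except in Morula of replicate 6, at 195 (4.84 in Morula of replicate 4). The smallest averages were MB TE of replicate 3 (3 cells) and MB ICM of replicate 5 (5 cells). The latter includes a cell of 2633 reads that stood at 380 CPM in each of PRKCI, CRB3 and RAB25. Days 6 and 7 rest on replicates 4 and 6 and days 8 and 9 on the other libraries, so the step from day 7 to day 8 cannot be told apart from a change of library. Fewer cells of a kind and less RNA per cell cannot be told apart within an average. Nothing says that the libraries are separate groups of embryos, so the spread between them may be technical.

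PRKCI, the catalytic subunit of the apical kinase, was highest in the day 9 epiblast and lowest in the day 9 trophectoderm. In LB EPI it stood at 483 CPM in replicate 2, 486 in replicate 3 and 545 in replicate 5. In LB PE it was at 205 in replicate 3 and 178 in replicate 5, and in LB TE at 44.3 and 51.9 in the same libraries. The 3 day 9 classes did not overlap, in the order LB EPI, LB PE, LB TE. On day 8 the level in MB ICM was 120.1 in replicate 1, 131 in replicate 2 and 209 in replicate 5. In MB TE it was 117 in replicate 1, 44.1 in replicate 2 and 46.3 in replicate 3. The lowest inner average and the highest trophectoderm average thus lay side by side, and both were from replicate 1. Morula was at 155 in replicate 4 and 82.3 in replicate 6, and EB at 106 in replicate 4, its only average.

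**Figure D1:**
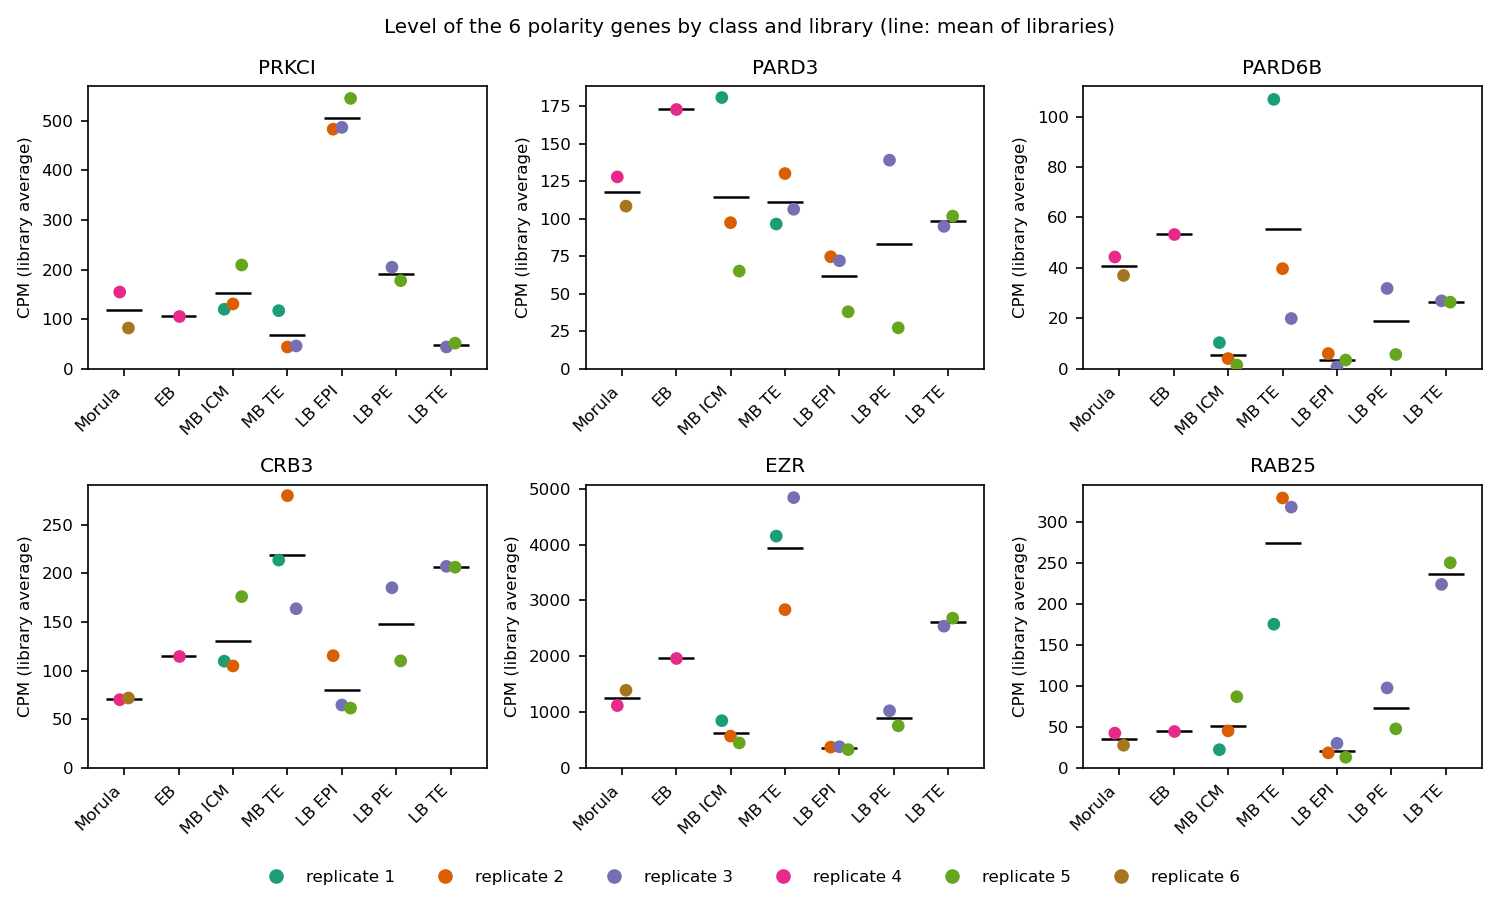
Level of each of the 6 genes in CPM (linear y axes, from 0) for the 7 classes on the x axis. Each point is the average of the cells of 1 library, coloured by library, and the line is the mean of the libraries. PRKCI stands at 483 to 545 CPM in LB EPI and at most 209 in all other averages, while EZR, RAB25 and CRB3 have their highest means in MB TE and LB TE.

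By class means, PRKCI ran from LB EPI (504 ± 34.7 CPM, SD, n = 3) through LB PE (191 ± 19.3, n = 2), MB ICM (153 ± 48.6, n = 3), Morula (119 ± 51.2, n = 2), EB (106, n = 1) and MB TE (69.2 ± 41.6, n = 3) to LB TE (48.1 ± 5.42, n = 2). Only the step from LB EPI to LB PE separated neighbours in this order. For each later pair of neighbours the library ranges overlapped. On the log2(CPM + 10) scale PRKCI differed between LB TE and LB EPI by -3.18 (SE 0.35), between LB PE and LB EPI by -1.39 (SE 0.35) and between LB EPI and MB ICM by 1.74 (SE 0.32). The gene was singled out for its high epiblast level, so these 3 differences are a description and carry no test. Within single libraries the difference of LB TE from LB EPI was -3.19 in replicate 3 and -3.16 in replicate 5. The difference of LB EPI from MB ICM was 1.81 in replicate 2 and 1.34 in replicate 5, the libraries that hold both ages.

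The remaining PRKCI comparisons were tested with limma over all 12540 genes that passed the filter. LB PE exceeded LB TE by a log2 difference of 1.79 (SE 0.38, adjusted p = 0.00537), higher in both libraries, by 1.99 in replicate 3 and 1.60 in replicate 5. With 1 of those libraries left out, that call was lost without replicate 3 (adjusted p = 0.127) and without replicate 5 (0.0754). On day 8 PRKCI was lower in MB TE than in MB ICM, with a log2 change of -1.08 (SE 0.31, adjusted p = 0.0307). Within replicate 1 the day 8 difference was -0.03 and within replicate 2 it was -1.38. Leaving out replicate 2, 3 or 5 ended this call (adjusted p = 0.231, 0.183 and 0.16), as did a minimum of 5 cells per average (0.139). In all, 7 of 15 alternative settings ended it. From MB TE to LB TE the PRKCI difference was -0.36 (adjusted p = 1), and from Morula to EB it was -0.16 (adjusted p = 1). The log2 difference of trophectoderm from inner cells changed by -2.10 (SE 0.47) from day 8 to day 9, a value that rests on LB EPI and is given with no test.

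Single cells differed in the same order on day 9. The median PRKCI level over the 45 LB EPI cells was 419 CPM, with a lowest value of 0 and a highest of 1233. Over the 31 LB TE cells the median was 39.1 and the highest 93.1. Of the LB EPI cells 2 lay at or under that highest LB TE value, against 24 of 37 MB TE cells and 1 of 25 LB PE cells. Of the 241 cells outside LB EPI, 1 cell, a Morula cell, reached the LB EPI median. LB PE cells had a median of 197 CPM, with a lowest value of 0 and a highest of 327. Reads of PRKCI were present in 44 of 45 LB EPI cells (97.8%, exact 95% interval 88.2 to 99.9) and in all 31 LB TE cells (100%, 88.8 to 100). After each cell was thinned to 20000 reads, with 2 LB EPI cells and no LB TE cell too shallow to use, these shares were 100% and 54.8%. In LB PE the thinned share was 90% (5 cells left out) against 96% before thinning. Intervals cover counting error only.

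**Figure D2:**
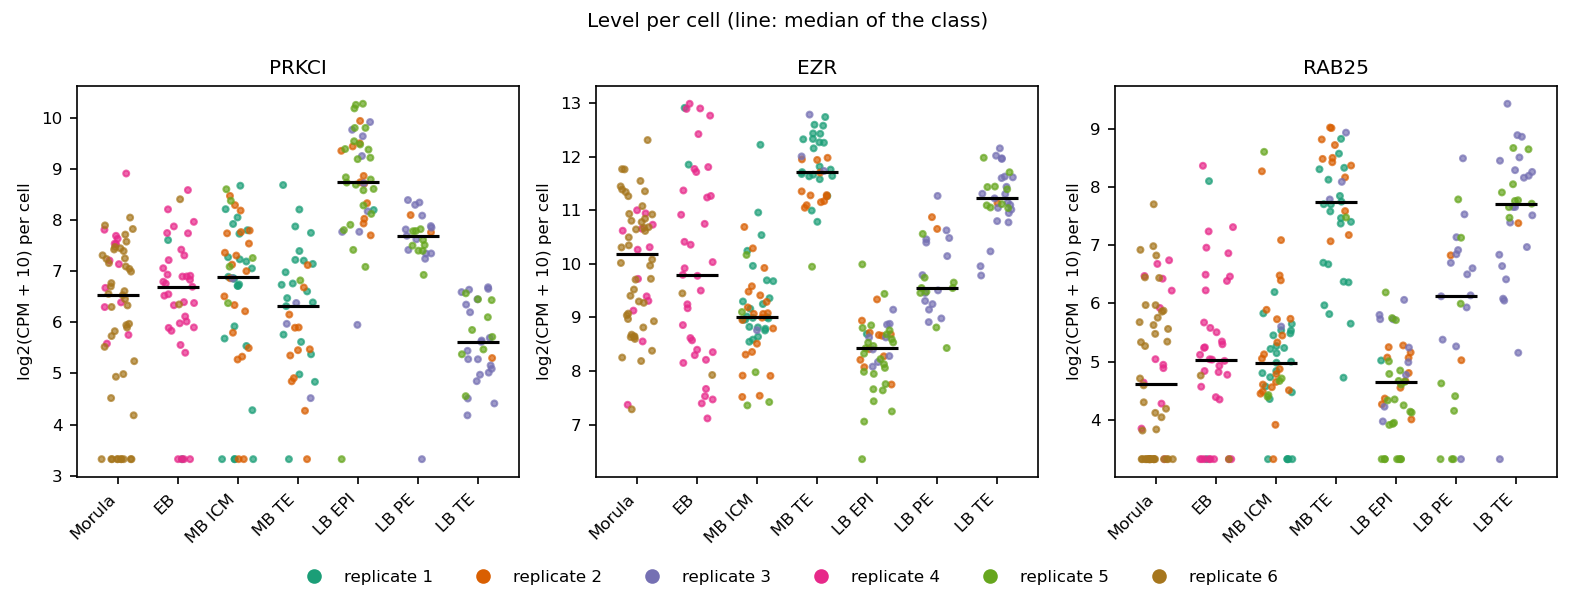
PRKCI, EZR and RAB25 in each of the 286 cells, as log2(CPM + 10) on the y axis, by class on the x axis; points are coloured by library and the line is the class median. PRKCI in LB EPI (median 419 CPM) lies above LB TE (39.1), and EZR in EB spreads from 129 to 8100 CPM.

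PARD3, the scaffold that recruits the kinase to junctions, showed no called difference in any of the 8 comparisons. It was at 108 to 128 CPM in Morula, 173 in EB, 65.1 to 181 in MB ICM and 96.4 to 130.0 in MB TE. On day 9 it was at 38.0 to 74.7 in LB EPI and 94.9 to 102 in LB TE. The LB PE averages were 139 in replicate 3 and 27.3 in replicate 5, the highest and the lowest of day 9. The high MB ICM average, that of replicate 1, includes a cell at 2374 CPM, while the median of the 51 MB ICM cells was 73.1. LB TE differed from LB EPI by a log2 change of 0.69 (SE 0.42, limma adjusted p = 0.323), and MB TE differed from MB ICM by -0.07 (SE 0.38, adjusted p = 0.956). By mean the order was EB, Morula, MB ICM, MB TE, LB TE, LB PE and LB EPI, and from Morula down each class overlapped its neighbour.

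PARD6B, the adaptor that holds the kinase next to CDC42, was a low gene that stood higher in MB TE than in MB ICM on day 8. In MB TE it stood at 107 CPM in replicate 1, 39.7 in replicate 2 and 20.0 in replicate 3. In MB ICM it was at 10.4, 4.10 and 1.54 in replicates 1, 2 and 5, below every MB TE average. It rose in MB TE, with a log2 change of 1.88 (SE 0.41, limma adjusted p = 0.00421), and 2.52 within replicate 1 and 1.82 within replicate 2. Leaving out replicate 2 ended the call (adjusted p = 0.0558). The MB ICM averages lay near or under the 10 CPM added before the log, so the size of the change depends on that setting. Over the 15 alternatives it ran from 0.85 to 3.23.

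On day 9 PARD6B was at 27.0 and 26.4 CPM in LB TE and at 6.09, 0.788 and 3.52 in LB EPI. It was higher in LB TE by 1.51 (SE 0.45, limma adjusted p = 0.0264), a call that ended when replicate 2 (0.0624), 3 (0.134) or 5 (0.0985) was left out, and without the library block (0.0601). In all, 6 of 15 alternative settings ended this call, and over the 15 the log2 difference ran from 0.54 to 2.95. LB PE was split, with 31.9 CPM in replicate 3, above both LB TE averages, and 5.72 in replicate 5. It differed from LB TE by -0.52 (SE 0.49, limma adjusted p = 0.641). All 6 members were higher in LB PE of replicate 3 than of replicate 5, as were the trophectoderm genes (5754 against 2081 CPM) and SOX2. The part of those genes in the levels of LB PE was not tested. Morula, at 37.0 to 44.3 CPM, and EB, at 53.4, lay above every day 9 average and within the range of MB TE. By mean the order was MB TE, EB, Morula, LB TE, LB PE, MB ICM and LB EPI, and Morula separated from both of its neighbours. Thinned to 20000 reads, 45.9% of MB TE cells and 12.8% of MB ICM cells kept a PARD6B read (75.7% and 39.2% before thinning). The thinned share was 44% in Morula and 55.6% in EB. On day 9 it was 45% in LB PE, 25.8% in LB TE and 6.98% in LB EPI.

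CRB3, the apical transmembrane protein, was highest in both trophectoderm classes. MB TE was at 214 CPM in replicate 1, 280.0 in replicate 2 and 164 in replicate 3, and LB TE at 207 and 206 in replicates 3 and 5. LB EPI was at 115, 64.7 and 61.5 in replicates 2, 3 and 5, below LB TE throughout. The day 9 rise in LB TE had a log2 size of 1.35 (SE 0.33, limma adjusted p = 0.00726), with 1.54 and 1.60 within replicates 3 and 5. It was lost without replicate 3 (adjusted p = 0.112). On day 8 MB ICM was at 109.8, 105 and 176 CPM in replicates 1, 2 and 5, and the last value overlapped MB TE. That average includes the cell of 2633 reads at 380 CPM, while its median cell was at 80.8. The day 8 difference was 0.71 (SE 0.30, adjusted p = 0.145), and it passed the threshold without replicate 5 (log2 change 1.01, adjusted p = 0.0384). In all, it passed under 3 of 15 alternative settings. Morula had the lowest mean, 71.0 ± 1.23 CPM (SD, n = 2), with EB at 115, and LB PE was at 185 and 110.1 in replicates 3 and 5. By mean the order was MB TE, LB TE, LB PE, MB ICM, EB, LB EPI and Morula, and only LB TE and LB PE were separate neighbours.

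EZR, which encodes ezrin, had values in all 286 cells. It was at 4154, 2836 and 4843 CPM in MB TE (replicates 1, 2 and 3) and at 846, 569.7 and 447 in MB ICM (replicates 1, 2 and 5). On day 9 it was at 2539 and 2683 CPM in LB TE, 1024 and 755 in LB PE and 373, 379 and 328 in LB EPI. Morula was at 1117 and 1392 in replicates 4 and 6, and EB at 1973. The order within day 9 was the reverse of that of PRKCI, again with no overlap between the 3 classes. Against LB EPI the log2 rise was 2.81 in LB TE (SE 0.25, limma adjusted p = 2.99e-07) and 1.25 in LB PE (SE 0.25, adjusted p = 0.00549). LB PE was below LB TE by -1.56 (SE 0.27, adjusted p = 0.00128). The call of LB PE against LB EPI was lost without replicate 3 (adjusted p = 0.0793) or 5 (0.0507) and with limma-voom (0.0634), and that of LB PE against LB TE without replicate 5 (0.0923). From MB ICM to LB EPI the level differed by -0.71 (SE 0.23, adjusted p = 0.0787), with -0.60 and -0.44 within replicates 2 and 5. Neighbouring classes were separate all along the order MB TE, LB TE, EB, Morula and LB PE. MB ICM overlapped LB PE, and LB EPI was lowest. The MB ICM average of replicate 1, the one in that overlap, includes a cell at 4763 CPM. It also includes cells of 7581 and 8812 reads at 1979 and 1475 CPM. Its median cell was at 506, against 796 and 739 in LB PE of replicates 3 and 5. The part of those cells in the overlap and in the step to LB EPI was not tested.

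RAB25, a relative of RAB11 found in epithelia, followed EZR across days 8 and 9. It was at 175, 329 and 318 CPM in MB TE (replicates 1, 2 and 3) and at 22.2, 45.1 and 86.8 in MB ICM (replicates 1, 2 and 5). The last of these includes the cell of 2633 reads at 380 CPM, while its median cell was at 15.4. LB TE was at 224 and 250.1, LB PE at 97.5 and 47.6, and LB EPI at 18.4, 29.97 and 13.0. Every trophectoderm average was above every other average. The log2 rise of RAB25 was 2.26 in MB TE (SE 0.36, limma adjusted p = 0.000227) and 3.03 in LB TE against LB EPI (SE 0.40, adjusted p = 1.99e-05). The day 8 rise was 2.52 and 2.62 within replicates 1 and 2.

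LB PE stood above LB EPI in RAB25 by 1.39 (SE 0.40, limma adjusted p = 0.044) and below LB TE by -1.65 (SE 0.43, adjusted p = 0.0235). The first call ended when any of replicates 2 (adjusted p = 0.127), 3 (0.255), 4 (0.0593), 5 (0.065) or 6 (0.0504) was left out, and the second when replicate 2 (0.0512), 3 (0.0586) or 5 (0.286) was. Over all 15 alternatives the first call was lost in 13 and the second in 5. The median LB PE cell was at 83.9 CPM in replicate 3 and 11.2 in replicate 5, against 27.8 and 8.30 in LB EPI. The LB PE average of replicate 5 includes cells of 9474 and 23073 reads at 211 and 130 CPM. Unlike EZR, RAB25 was low in Morula (42.4 and 27.6 CPM) and EB (44.6). By mean the order was MB TE, LB TE, LB PE, MB ICM, EB, Morula and LB EPI. LB TE separated from LB PE and EB from Morula, and the other neighbours overlapped. Thinned to 20000 reads, 89.2% of MB TE cells, 90.3% of LB TE cells, 55% of LB PE cells and 25.6% of LB EPI cells kept a RAB25 read, against 100%, 96.8%, 84% and 84.4% before thinning.

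**Figure D3:**
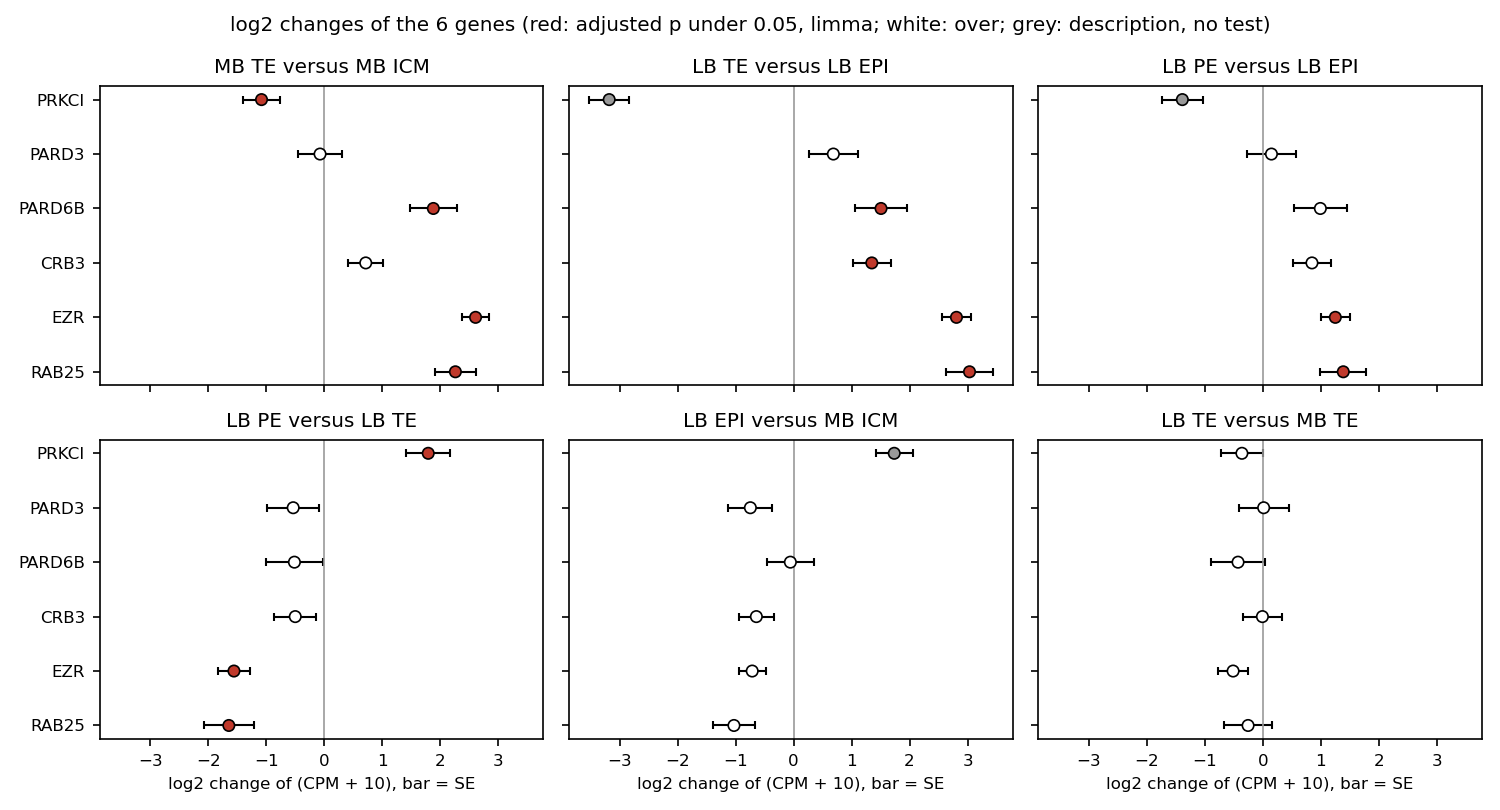
log2 change of (CPM + 10) on the x axis for each of the 6 genes in 6 comparisons, with the standard error as a bar; red points passed the threshold, white points did not, and grey points are PRKCI against LB EPI, given with no test. In LB TE against LB EPI PRKCI lies at -3.18 and EZR and RAB25 at 2.81 and 3.03.

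The members passed the filter in 6 of 6 cases and can be counted beside all tested genes, leaving PRKCI out wherever LB EPI enters. Medians are over all 6. In MB TE against MB ICM 3 rose (EZR, RAB25 and PARD6B) and 1 fell (PRKCI), where 10.1% of all genes were called. Their median log2 change was 1.30, against -0.04 over all genes. In LB TE against LB EPI 4 of the other 5 were higher (EZR, RAB25, CRB3 and PARD6B) and 0 lower, with 15.2% of all genes called and a median of 1.43 against -0.04. In LB PE against LB EPI 2 of the other 5 were higher (EZR and RAB25) and 0 lower, with 5.39% called and medians of 0.92 and -0.01. In LB PE against LB TE 1 was higher (PRKCI) and 2 lower (EZR and RAB25), with 5.85% called and medians of -0.53 and 0.02. The members were chosen with such results known, so these counts describe them and support nothing about the pathway.

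Classes of different ages were also compared. MB ICM is not an epiblast class alone. Its FN1 was at 3318 to 3516 CPM and its PDGFRA at 69.5 to 123, against 434 to 756 and 11.7 to 24.3 in LB EPI. HNF4A overlapped between the 2 classes. A change with age and a change in the mix of cells cannot be told apart in that step. From MB ICM to LB EPI 0 of the 5 members other than PRKCI passed in limma, where 5.1% of all genes were called. They differed by -0.06 to -1.03 on the log2 scale, 3 of them (CRB3, EZR and RAB25) at an unadjusted p under 0.05, and 0 passed by limma-voom. RAB25 passed without replicate 1 (-1.35, limma adjusted p = 0.0472). Its MB ICM average in replicate 5, of 86.8 CPM, includes a cell of 2633 reads at 380 CPM, against a median cell of 15.4. The part of that cell in the difference was not tested. From MB TE to LB TE 0 of 6 passed in limma (0 at an unadjusted p under 0.05, and 0 by limma-voom), with 0.191% of all genes called. Only replicate 3 had an average of both, with 3 MB TE cells. From Morula to EB 0 of 6 passed (0 at an unadjusted p under 0.05, and 0 by limma-voom), with 0.0797% called, and EZR differed by 0.69 (SE 0.35, adjusted p = 1). The change of the trophectoderm difference between day 8 and day 9 was called for 0 of the 5 members other than PRKCI in limma (0 at an unadjusted p under 0.05, and 0 by limma-voom), with 0.367% of all genes called.

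EZR differed widely between single cells on days 6 and 7. Among the 35 EB cells of replicate 4 it ranged from 129 to 8100 CPM, with quartiles of 322 and 2544. Among the 45 Morula cells of replicate 6 it ranged from 146 to 5063. The 21 MB TE cells of replicate 1 lay between 1754 and 6824. Over the 39 EB cells 18 exceeded the highest LB EPI cell, against 7 of 51 MB ICM cells and 36 of 37 MB TE cells. EB cells of replicate 4 with at least 20000 reads (32 cells) had more EZR where they had more of the trophectoderm genes. Spearman's correlation was 0.75 with the keratin KRT18, 0.71 with GATA2, 0.67 with the endocytic adaptor DAB2, 0.63 with CDX2 and 0.58 with both KRT8 and GATA3. With the hypoblast genes it was -0.69 for fibronectin, FN1, -0.53 for PDGFRA, -0.32 for GATA6 and -0.07 for HNF4A. With the epiblast genes it was -0.40 for SOX2, -0.38 for POU5F1 and 0.01 for NANOG. PRKCI in the same cells had correlations of -0.09 to -0.31 with those 6 trophectoderm genes. With the epiblast genes its correlation was 0.14 for SOX2, 0.21 for POU5F1 and -0.29 for NANOG.

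In Morula cells EZR also rose and fell with trophectoderm genes. Spearman's correlation with KRT18 was 0.76 over 13 cells of replicate 4 and 0.61 over 37 cells of replicate 6, and with DAB2 0.46 and 0.77. With FN1 it was -0.71 in replicate 4 and 0.32 in replicate 6, so that relation differed in sign between the libraries. In replicate 6 EZR was about as related to GATA6 (0.41) as to CDX2 (0.42). It was also at 0.27 with POU5F1, 0.20 with PDGFRA, 0.08 with SOX2 and -0.27 with NANOG. In replicate 4 the values were -0.15 for GATA6, -0.36 for POU5F1, -0.82 for PDGFRA and -0.49 for SOX2. PRKCI was positively related to all 6 trophectoderm genes in Morula of replicate 6 (0.29 with GATA2 to 0.63 with DAB2), unlike in EB. There it was also positively related to FN1 (0.64), GATA6 (0.41), PDGFRA (0.29), POU5F1 (0.30) and SOX2 (0.19) in Morula, but not to NANOG (-0.23). In Morula of replicate 4 PRKCI ranged from -0.24 with DAB2 to 0.37 with GATA3 among the trophectoderm genes. Over the cells of replicate 6 EZR and PRKCI also moved with the number of recovered reads (correlations 0.45 and 0.57). In replicate 4 these were 0.10 and -0.16 in Morula and 0.19 and 0.25 in EB. The part of depth in these relations was not tested. These are descriptions across cells that share a library and amplification, chosen after the spread of EZR had been seen.

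The wider polarity machinery was described through 6 lists with 107 genes besides the members, of which 100 were in the table and 87 were tested. In MB TE against MB ICM 13 of the 87 rose and 2 fell (median log2 change 0.23, against -0.04 over all genes, of which 10.1% were called, 749 up and 515 down). In LB TE against LB EPI 18 rose and 5 fell (median 0.45, against -0.04 over all genes, of which 15.2% were called, 1037 up and 865 down). LB PE had 2 higher and 1 lower against LB EPI (5.39% of all genes called, median 0.08 against -0.01), and 3 higher and 9 lower against LB TE (5.85% called, median -0.24 against 0.02). LB EPI had 2 higher and 2 lower against MB ICM (5.1% called, median -0.03 against 0.02). From MB TE to LB TE and from Morula to EB it was 0 of 87 in limma, with 7 of the 87 at an unadjusted p under 0.05 in each, and with 24 and 10 genes called in all.

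Of the Par complex list, 5 further genes were tested. CDC42, the GTPase that activates the kinase, rose in MB TE by 1.10 (SE 0.26, limma adjusted p = 0.0081) and in LB TE against LB EPI by 1.27 (SE 0.29, adjusted p = 0.00395). PARD3B, a relative of PARD3, was higher in LB TE by 1.90 (SE 0.35, adjusted p = 0.000746), at 35.1 ± 1.31 CPM (SD, n = 2) against 2.28 ± 0.513 in LB EPI (n = 3). PRKCZ, which encodes the zeta form of the same kinase, had no such epiblast peak. It was at 70.5 ± 35.4 CPM in LB EPI (n = 3), 119 ± 16.2 in LB TE (n = 2), 106 ± 56.7 in MB ICM and 147 ± 42.6 in MB TE (n = 3 each), and its log2 difference of LB TE from LB EPI was 0.84 (adjusted p = 0.171). The iota and zeta genes thus pointed in opposite directions in that comparison, and the difference between them was not tested. PARD6A and PARD6G, the relatives of PARD6B, stayed under 10 CPM in all averages and were not tested.

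Of the Crumbs list 2 of 6 tested genes rose on day 8, where 10.1% of all genes were called. They were MPP5, the adaptor between CRB3 and the Par proteins, by 1.17 (SE 0.30, limma adjusted p = 0.0134) and PATJ by 1.31 (SE 0.38, adjusted p = 0.0325). On day 9 0 of 6 were called in LB TE against LB EPI by limma (2 at an unadjusted p under 0.05, PATJ and LIN7C), where 15.2% of all genes were. The log2 differences were 0.56 for MPP5, 1.10 for PATJ and 0.82 for LIN7C (limma adjusted p = 0.294, 0.09 and 0.0794). CRB1 and CRB2 were not among the rows of the table.

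The list of ezrin relatives and linkers had 12 tested genes. In MB TE 4 rose and 1 fell, where 10.1% of all genes were called. In LB TE against LB EPI 4 rose and 3 fell, where 15.2% were. The apical mucin MUC1 rose by 1.33 (SE 0.38, limma adjusted p = 0.0272) and 2.50 (SE 0.42, adjusted p = 0.000267). SLC9A3R1, the scaffold that binds ezrin, rose in MB TE by 1.23 (SE 0.38, adjusted p = 0.043), and its log2 difference in LB TE was 1.04 (adjusted p = 0.11). Among the ezrin relatives MSN was higher in LB PE than in LB EPI by 1.60 (SE 0.35, limma adjusted p = 0.00964), and RDX differed by -0.11 between LB TE and LB EPI (adjusted p = 0.901). PODXL, an apical sialomucin, was higher in LB EPI than in MB ICM by 1.51 (SE 0.34, adjusted p = 0.00995) and lower in LB TE than in LB EPI by -1.16 (SE 0.37, adjusted p = 0.0401). The PODXL level was 36.5 ± 18.6 CPM in LB EPI (SD, n = 3) and 51.0 ± 13.6 in LB PE (n = 2), so that, other than for PRKCI, its mean was highest in LB PE.

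Apical trafficking genes rose in 3 of 22 cases in MB TE, where 10.1% of all genes were called in either direction, and in 7 of 22 in LB TE against LB EPI, where 15.2% were. In both 0 were lower. RAB11A, the recycling GTPase related to RAB25, was at 929 ± 52.4 CPM in MB TE and 316 ± 39.4 in MB ICM (SD, n = 3 each). Its rise was 1.54 on day 8 (SE 0.22, limma adjusted p = 8.24e-05) and 1.74 on day 9 (SE 0.25, adjusted p = 4.69e-05). Unlike RAB25 it was also high in Morula, at 966 ± 300.4 CPM (n = 2). Its close relative RAB11B was not called, with -0.18 on day 8 and -0.47 on day 9 (adjusted p = 0.801 and 0.407). ANXA2, an annexin of apical vesicles, rose in LB TE against LB EPI by 2.61 (SE 0.31, adjusted p = 5.79e-06). RAB17, another GTPase of epithelial recycling, was higher in LB PE than in LB EPI by 1.61 (SE 0.34, adjusted p = 0.00759) and lower in LB EPI than in MB ICM by -1.33 (SE 0.31, adjusted p = 0.0128). Of 18 basolateral genes, such as SCRIB, DLG1, LLGL1 and LLGL2, 0 were called by limma in any of the 8 comparisons. At most 3 were at an unadjusted p under 0.05 in each. The share of all genes called ran from 0.0797% to 15.2% over these comparisons. The Lgl genes LLGL1 and LLGL2 differed between LB TE and LB EPI by -0.47 and 0.67 (adjusted p = 0.469 and 0.389). The myosin light chain MYL9 was lower in LB TE than in LB EPI by -2.03 (SE 0.34), and the CDC42 effector CDC42EP4 was lower in trophectoderm on both days, by -1.57 (SE 0.37) and -1.85 (SE 0.41).

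**Figure D4:**
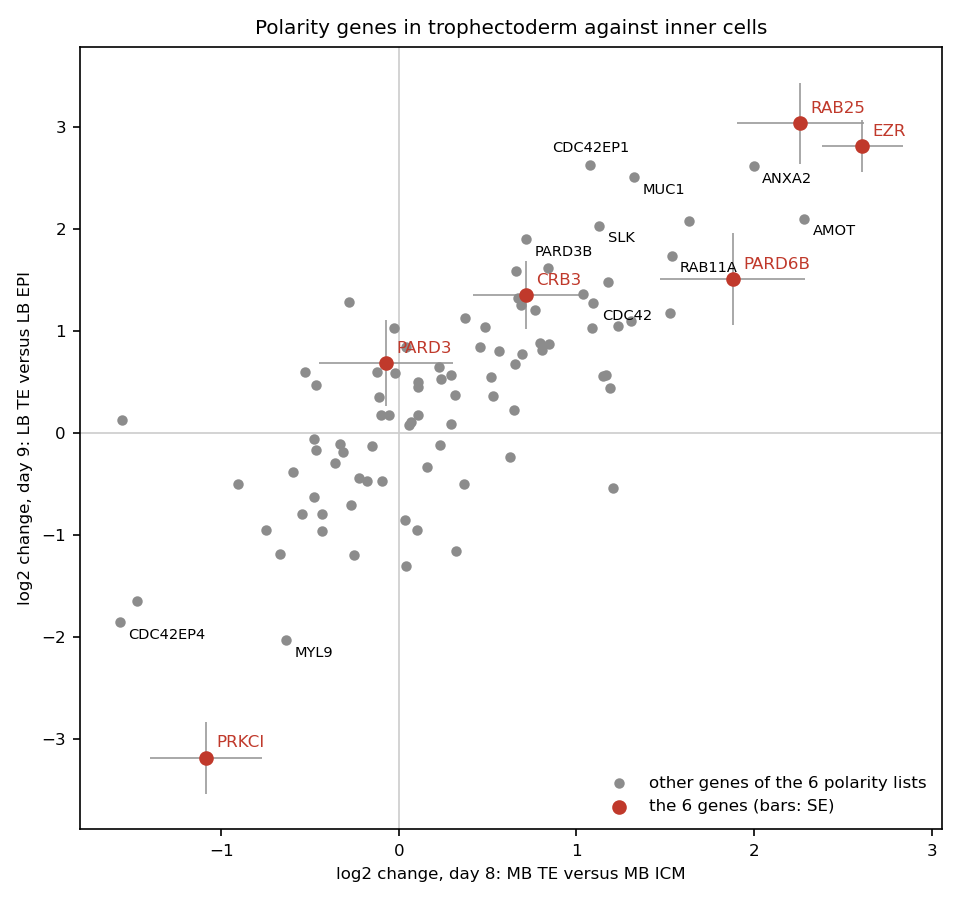
log2 change of (CPM + 10) in trophectoderm against inner cells on day 8 (x axis, MB TE versus MB ICM) and day 9 (y axis, LB TE versus LB EPI) for the tested genes of the 6 polarity lists in grey and the 6 members in red with standard errors. PRKCI lies lowest on the y axis, at -3.18, and EZR and RAB25 lie at the upper right.

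The genes whose 16 averages were most like those of PRKCI, by Pearson's r of log2(CPM + 10), were HELLS (r = 0.95), ADGRA3 (0.92), BCNT2 (0.92), TGIF2 (0.92) and PGAM1 (0.92). HELLS, a chromatin remodeller of dividing cells, was at 665 ± 162 CPM in LB EPI (SD, n = 3) and 77.5 ± 24.6 in LB TE (n = 2). PGAM1, an enzyme of glycolysis, was at 2867 ± 1041 and 704 ± 89.6 in the same classes. EZR was most like ASRGL1, HKDC1 and DAB2 (r = 0.96 each), and RAB25 like FXYD4 (0.97), LOC100299281 (0.97) and UGCG (0.96). CRB3 was nearest to TMEM179B (0.91), MICALL1 (0.89) and ELMO3 (0.88), PARD6B to EPN2 (0.93), PHLDA3 (0.91) and GPLD1 (0.91), and PARD3 to SMG9 (0.88), GALNT1 (0.86) and ZMIZ1 (0.86). Among the members, PRKCI ran against EZR (r = -0.87) and RAB25 (-0.76), and CRB3 ran with RAB25 (0.86). These are correlations over averages that share libraries and are given as a description.

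PRKCI lies on chromosome 1 in the RefSeq gene table of the ARS-UCD2.0 assembly, used here for gene order only. Its neighbours are SKIL and CLDN11 on one side and PHC3 and GPR160 on the other, and none of them overlaps it. SKIL, a regulator of SMAD proteins, also had its highest mean in LB EPI and its lowest in LB TE. It was at 171 ± 49.9 CPM in LB EPI (SD, n = 3), 55.7 ± 37.9 in LB PE (n = 2), 20.1 ± 4.71 in LB TE (n = 2) and 45.4 ± 6.83 in MB ICM (n = 3). SKIL fell in LB TE against LB EPI by 2.61 (SE 0.37, limma adjusted p = 4.95e-05) and in LB PE by 1.61 (SE 0.37, adjusted p = 0.0128), and was higher in LB EPI than in MB ICM by 1.65 (SE 0.34, adjusted p = 0.00468). PHC3, a Polycomb protein next to PRKCI on the other side, was highest in LB PE, at 41.8 ± 14.0 CPM (n = 2), and differed between LB TE and LB EPI by -0.29 (SE 0.38, adjusted p = 0.723). GPR160 differed there by -0.89 (SE 0.42, adjusted p = 0.176), and CLDN11 was under 3 CPM in all averages. The pair of SKIL and PRKCI was looked at for its position in the genome, not for its values.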

How the data were processed

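Per the submitters' processing notes, reads were handled with Trim Galore, HISAT2 and featureCounts on build ARS-UCD1.2 and with Seurat. Settings, versions and use of strand were not given in the sources used. The deposited values are natural log values, ln(1 + count scaled to 10000 per cell), as the values themselves show. They were turned back into CPM, and the reads per cell were recovered from the smallest steps (100% of values whole within 0.1 reads). Classes, days and libraries came from the cell table the authors deposited. It lists 288 cells, of which 2 had no values. Every library uses the same 48 plate barcodes. 2 libraries in the labels were not analysed here.

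CPM was averaged per library and class over at least 3 cells, which left 10 cells out. Genes with 10 CPM in at least 1 of 16 averages were tested on log2(CPM + 10) with limma 3.58.1 (R 4.3.3, trend and robust), with the library as a random block (correlation 0.18) and Benjamini-Hochberg adjustment over 12540 genes, at a threshold of 0.05. Classes of 1 library take their spread from the others. The method was tested on simulated data. Shares of cells have exact (Clopper-Pearson) 95% intervals.

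The members and lists were chosen with earlier results of these data known. Named list genes are relatives and partners of the members and the 3 list genes with the smallest adjusted p in each comparison, and the 5 (PRKCI) or 3 most like genes are those with the highest Pearson's r. The counts of 1 list are not reported here. Annotated genes overlap PRKCI, PARD3, CRB3 and EZR, and none of these is in the table. The alternatives were other pseudocounts, filters, cell minimums, averages, scalings and tests, no block, and each library left out.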

Additional observations from a re-analysis of the deposited data

How the results depend on the processing

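Under 15 alternatives, the 48 log2 changes of the members gave 714 values, of which 629 kept both direction and side of the threshold, 45 dropped out of the calls, 9 entered them and 31 changed sign. These counts include the PRKCI differences that rest on LB EPI, which the report gives with no test. All sign changes were in differences that had not passed the test, and the cause was not tested. For PARD3 in MB TE against MB ICM they were 0.51 (mean of log2 values over cells), 0.057 (no replicate block), 0.073 (limma-voom) and 0.27 (cells of at least 20000 reads), with a range of -0.32 to 0.34 when single libraries were left out. For PARD3 in LB PE against LB EPI it was -0.025 (limma-voom), with a range of -0.62 to 0.83, and against LB TE the range was -1.58 to 0.51. For PARD6B the range was -1.21 to 0.18 in LB PE against LB TE. In LB EPI against MB ICM it was -0.18 to 0.093, and 0.0095 with pseudocount 50. From MB TE to LB TE PARD3 gave -0.0029 (pseudocount 50), -0.026 (no filter), -0.036 (at least 5 cells), -0.15 (no replicate block), -0.021 (median ratio scaling) and -0.069 (20000 reads), with a range of -0.18 to 0.19. CRB3 gave 0.059 (mean of log2 values) and 0.023 (20000 reads), with a range of -0.26 to 0.13, and RAB25 gave 0.059 (limma-voom). The ranges of PRKCI and PARD6B were -0.58 to 0.015 and -0.89 to 0.035. The change of the EZR difference between days gave -0.035 (mean of log2 values), -0.028 (limma-voom) and -0.0095 (20000 reads).

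The number of genes called moved by over 1.5 times under several settings. MB TE against MB ICM had 818 with at least 5 cells (1264 before), and LB TE against LB EPI 3133 with limma-voom (1902). LB PE against LB EPI had 428 with no filter, 387 with no replicate block and 419 with limma-voom (676). LB PE against LB TE had 1246 with the mean of log2 values and 439 with no replicate block (734). LB EPI against MB ICM had 419 with no filter, 985 with the mean of log2 values and 1087 with limma-voom (640). LB TE against MB TE (24) had 4 and 43 with pseudocounts 1 and 50, 15 with at least 5 cells, 86 with the mean of log2 values, 11 with no replicate block, 63 with limma-voom and 42 with 20000 reads. EB against Morula (10) had 2, 24, 83 with no filter, 5, 16, 4 and 21 in the same order of settings, and the change between days (46) had 11, 86, 10 with no filter, 13, 155, 13, 115 and, with 20000 reads, 113. With single libraries left out the counts ranged from 635 to 1260 (MB TE against MB ICM), 851 to 1878 (LB TE against LB EPI), 260 to 617 (LB PE against LB EPI), 169 to 705 (LB PE against LB TE), 315 to 604 (LB EPI against MB ICM), 3 to 27 (LB TE against MB TE), 1 to 9 (EB against Morula) and 0 to 49 (change between days). EB against Morula has no value without replicate 4, the only EB average.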
